A study of Arabidopsis thaliana with 42 samples.

Results

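The nuclear genes for the photosystems and their light-harvesting antenna were followed through an RNA sequencing study of nitrate sensing in Arabidopsis thaliana. The 41 genes were chosen by locus identifier from the 37336 loci listed in each of 42 count files. No measured value entered the rule, but earlier results of these data were known when it was set. They comprise 5 LHCB1, 3 LHCB2 and 6 LHCB3 to LHCB6 genes, 6 LHCA genes, 12 PSA genes and 9 PSB genes. In seedlings treated with nitrate, 30 of the 40 tested members were lower in a mutant of 7 NLP genes than in wild type. The share over all genes was 6.75%. In leaf protoplasts that expressed NLP7, 32 of 40 were higher than in the matching control, against 6.4% of all genes. Both NLP7 libraries were also below another control group in 25 of 40 members, against 37.0% of all genes.

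Photosystem II and photosystem I are pigment-protein complexes of the thylakoid membrane that drive photosynthetic electron flow. LHCB and LHCA proteins bind chlorophyll and pass excitation energy to photosystem II and photosystem I, while PSB and PSA proteins are subunits of those photosystems. The reaction centre proteins are encoded in the chloroplast, whereas the genes described here are transcribed in the nucleus, and their mRNAs are among the most abundant of green tissue. NLP (NIN-like protein) transcription factors carry the nitrate signal to gene expression, and NRT1.1 is a nitrate transporter that also acts in nitrate sensing.

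The seedling experiment had 6 groups of 3 libraries: the septuple mutant nlp2,4,5,6,7,8,9, in which NLP1 and NLP3 are not named as mutated, the NRT1.1 mutant chl1-5, and wild type Col-0, each in N and in K. Whole seedlings were 7 days old, had grown in constant light on 2.5 mM ammonium succinate and received 10 mM KNO3 (N) or KCl (K) for 20 min. The reading of N and K rests on the treatment protocol. The labels describe the growth of chl1-5 in an entry of its own, so genotype and a separately run experiment cannot be told apart for chl1-5. The protoplast experiment had 12 groups of 2 libraries. Mesophyll protoplasts, leaf cells freed of their walls, came from wild type Col-0 grown for 3 to 4 weeks in soil and expressed 1 of the 9 NLPs transiently on top of their own genes. Each NLP was set against the control its labels name, which was separate for NLP7, shared by NLP4 and NLP6, and shared by NLP1, 2, 3, 5, 8 and 9. Nothing in the labels says that replicates came from separate cultures, so p-values measure the spread between these libraries.

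Gene counts lay between 18.3 and 59.7 M per seedling library and between 5.6 and 27.7 M per protoplast library. Alignments that were not unique came to 12.1 to 58.1% and 6.4 to 71.7% of each file's total, with the highest values in wild type N replicate 1 and in replicate 1 of the control for NLP4 and NLP6. NRT1.1 lay between 49.7 and 90.9 CPM (counts scaled to library size) in chl1-5, against 488.7 to 916.5 CPM in wild type. NLP8 was at 0 in all septuple mutant libraries, and NLP2 lay between 0.0 and 3.8 CPM there, while wild type had 7.1 to 19.1 CPM. NLP4, NLP6 and NLP7 transcripts were still counted in the mutant, and whole-gene counts do not check such alleles. Among the protoplasts, 4 libraries held another NLP than their label: the library labelled NLP4 replicate 1 held NLP1, the library labelled NLP5 replicate 2 held NLP8, the library labelled NLP6 replicate 1 held NLP4, and the library labelled NLP8 replicate 2 held NLP5. The 2 libraries of the control shared by NLP1, 2, 3, 5, 8 and 9 gave counts that matched to about sampling error (chi-square 1.07 per gene, 3.84 or more in every other pair) and were counted as 1 sample. The mesophyll marker list (8 genes of photorespiration and carbonic anhydrase) summed to 742 to 1975 CPM in protoplasts, and 5 to 13 of 15 root markers were at 0 there, with a sum of 0.223 to 3.07 CPM.

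Near-identical copies limit what the counts can say of single members. CAB1 (AT1G29930), CAB2 (AT1G29920) and CAB3 (AT1G29910), which encode the main LHCII protein LHCB1, stand within 6835 bases of chromosome 1. Their coding sequences have 804 bases each and identities of 95.6 to 96.4%, with differences at 47 positions over the set. The first 90 coding bases, from RefSeq TAIR10.1, are shown because reads from such a stretch decide which copy is counted. They were picked as the stretch in which the copies differ most, and no other stretch of this length has more differences. Capitals mark the 9 positions at which the copies differ, 5′ to 3′ on the coding strand.
CAB1: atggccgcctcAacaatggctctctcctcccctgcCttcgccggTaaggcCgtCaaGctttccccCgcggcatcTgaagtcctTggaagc
CAB2: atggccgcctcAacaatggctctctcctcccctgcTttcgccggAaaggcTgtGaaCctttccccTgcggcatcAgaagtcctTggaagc
CAB3: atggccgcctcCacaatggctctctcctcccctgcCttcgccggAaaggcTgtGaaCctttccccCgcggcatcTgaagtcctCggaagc
The genes lie at chr1:10477885-10479114 (CAB1, plus strand), chr1:10474656-10475969 (CAB2, minus strand) and chr1:10472280-10473502 (CAB3, minus strand), each as a single exon. CAB1 took 58.6 to 68.6% of the summed CPM of the 3 genes in seedlings and 65.9 to 73.8% in protoplasts. CAB2 took 12.3 to 20.2% in seedlings and 8.5 to 13.7% in protoplasts, and CAB3 17.5 to 22.5% and 14.6 to 22.0%. Over all members, 33 of 41 had every 50-base exon window found at a single place in the genome. The lowest shares of such windows were 70.5% in LHCB2.2, 76.5% in LHCB2.1 and 79.5% in CAB2.

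Overlap with other loci also limits the counts, and whether reads were counted by strand is not stated in the labels or headers. Exonic bases were shared with another locus by 17 members and by over 20% in 7, the highest being LHB1B2 (100%), PSAG (61.4%), PSAH-1 (53.3%) and LHCB2.3 (40.6%). LHB1B2 (AT2G34420), the fifth LHCB1 gene, had 0 counts in all 42 libraries, and so had AT2G08665, an annotated noncoding locus that covers all of its exonic bases on the opposite strand. A count of 0 allows 0.05 to 0.164 CPM per seedling library and 0.108 to 0.532 CPM per protoplast library, for counting error alone, and a read assigned to neither of a pair of overlapping loci would also leave 0. LHB1B2 was therefore not tested, and the counts below are of 40 members. A set of 20 members had under 1% shared exonic bases and every 100-base window unique. These 20 gave 15 of the 30 calls in the septuple mutant in N and 16 of the 32 with NLP7, described below. They gave 16 of the 31 in chl1-5 in K, but 1 of the 6 for N over K in wild type. For the difference in nitrate response between septuple mutant and wild type they gave 0 of the 2. Most calls with NLP1, NLP2, NLP3, NLP5 and NLP9 came from other members.

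Promoters are shown for 6 members. LHCB2.1 (AT2G05100) and LHCB2.2 (AT2G05070) had a nitrate response that differed between septuple mutant and wild type. LHCB4.2 (AT3G08940), LHCB6 (AT1G15820), LHCA4 (AT3G47470) and PSAH2 (AT1G52230) rose with NLP7 and with it lay above every control library. PSBX and PSBY met the same condition and are not shown. Each promoter shown is the 250 bases before the annotated gene start in RefSeq TAIR10.1, 5′ to 3′ on the strand of the gene. They lie at chr2:1824481-1824730 (LHCB2.1, minus), chr2:1800473-1800722 (LHCB2.2, minus), chr3:2717307-2717556 (LHCB4.2, plus), chr1:5447881-5448130 (LHCB6, minus), chr3:17495034-17495283 (LHCA4, minus) and chr1:19454548-19454797 (PSAH2, plus). Capitals mark matches, on either strand, to the motifs searched.
LHCB2.1: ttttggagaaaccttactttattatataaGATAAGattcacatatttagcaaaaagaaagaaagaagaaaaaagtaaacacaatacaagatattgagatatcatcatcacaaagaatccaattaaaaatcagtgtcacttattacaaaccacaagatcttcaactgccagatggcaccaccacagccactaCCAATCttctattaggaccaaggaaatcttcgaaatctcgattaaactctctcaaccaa
LHCB2.2: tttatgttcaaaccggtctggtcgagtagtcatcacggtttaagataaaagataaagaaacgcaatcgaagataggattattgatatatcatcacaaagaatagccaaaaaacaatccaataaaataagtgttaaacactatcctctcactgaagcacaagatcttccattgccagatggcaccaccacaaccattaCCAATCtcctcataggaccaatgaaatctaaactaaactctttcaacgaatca
LHCB4.2: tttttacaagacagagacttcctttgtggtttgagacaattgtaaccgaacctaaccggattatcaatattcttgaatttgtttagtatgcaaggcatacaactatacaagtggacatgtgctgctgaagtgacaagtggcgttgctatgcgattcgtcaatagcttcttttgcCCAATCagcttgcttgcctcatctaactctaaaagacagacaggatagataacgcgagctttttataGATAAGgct
LHCB6: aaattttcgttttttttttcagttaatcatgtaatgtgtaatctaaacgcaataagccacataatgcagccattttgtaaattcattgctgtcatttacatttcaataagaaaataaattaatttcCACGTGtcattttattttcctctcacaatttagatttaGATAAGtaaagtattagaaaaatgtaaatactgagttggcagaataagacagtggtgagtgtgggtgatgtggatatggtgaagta
LHCA4: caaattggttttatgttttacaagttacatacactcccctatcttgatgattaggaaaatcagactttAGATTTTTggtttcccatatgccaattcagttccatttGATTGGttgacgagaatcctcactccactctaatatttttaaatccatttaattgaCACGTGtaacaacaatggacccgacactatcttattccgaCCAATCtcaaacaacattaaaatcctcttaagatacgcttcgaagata
PSAH2: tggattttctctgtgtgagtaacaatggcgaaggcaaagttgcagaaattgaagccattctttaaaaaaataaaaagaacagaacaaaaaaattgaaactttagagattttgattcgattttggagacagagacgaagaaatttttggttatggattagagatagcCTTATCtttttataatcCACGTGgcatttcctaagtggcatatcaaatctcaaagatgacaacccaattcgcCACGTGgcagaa
The motifs were the G-box CACGTG, which reads the same on both strands, the I-box GATAAG, the GLK site CCAATC, the evening element AAAATATCT, the CCA1 site AAAAATCT and the core of the nitrate-responsive element, and no motif contains another. The G-box was found in 8 of 41 member promoters (19.5%), against 6.5% of all 27443 promoters of this length. The I-box was found in 9 members (22.0%, against 12.3% of all promoters), the GLK site in 11 (26.8%, against 10.2%), the CCA1 site in 5 (12.2%, against 6.7%) and the evening element in 1 (2.4%, against 2.4%). The nitrate-responsive element core was found in 0 members and 0.1% of all promoters. A match is a description of letters in this window. In the mutant comparison described below, the G-box was found in 6 of 30 called and 2 of 10 uncalled members and the GLK site in 8 of 30 and 2 of 10. Of the 6 members above every control library with NLP7, 3 had the G-box, 3 the I-box, 2 the GLK site and 1 the CCA1 site. PSBX and PSBY had no match to any motif searched, so the promoters shown from this group are those with matches.

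The members made up 4.56 to 12.1% of all gene counts in seedlings and 0.189 to 0.771% in protoplasts. Per kilobase of exon, the highest mean levels over the 18 seedling libraries were those of CAB1 at 12734 CPM per kb, PSBR (AT1G79040) at 4411, CAB3 at 4144, PSBO1 (AT5G66570) at 3825 and CAB2 at 3344. PSBR and PSBO1 encode proteins on the lumen side of photosystem II, PSBO1 the protein that stabilises the oxygen-evolving cluster. The lowest of the tested members were Lhca6 (AT1G19150) at 56.8, Lhca5 (AT1G45474) at 78.2 and LHCB4.3 (AT2G40100) at 82.4 CPM per kb. Lhca5 and Lhca6 are antenna proteins that link photosystem I to the NDH complex. In protoplasts the order began with CAB1 at 467, PSBR at 336, LHCB4.1 at 236, LHCA1 at 235 and PSAL at 231 CPM per kb. CAB1 and PSBR led in both systems, although seedlings and protoplasts were normalised separately and their levels are not compared by a test.

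Summed over all members, the level was 42344 ± 5616 CPM in the septuple mutant in N and 55396 ± 11480 CPM in K (SD, n = 3 each). It was 130685 ± 20062 CPM in chl1-5 in N and 120171 ± 13570 CPM in K, and 97730 ± 16119 CPM in wild type in N and 58753 ± 13086 CPM in K. The 3 septuple mutant N libraries, at 38387 to 48772 CPM, lay below all wild type N libraries, at 86749 to 116235 CPM. Wild type K libraries ran from 44628 to 70462 CPM, below the 106525 to 133664 CPM of chl1-5 in K and across the 47374 to 68547 CPM of the septuple mutant in K. In whole seedlings, fewer green cells and less of these mRNAs per cell cannot be told apart.

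**Figure D1:**
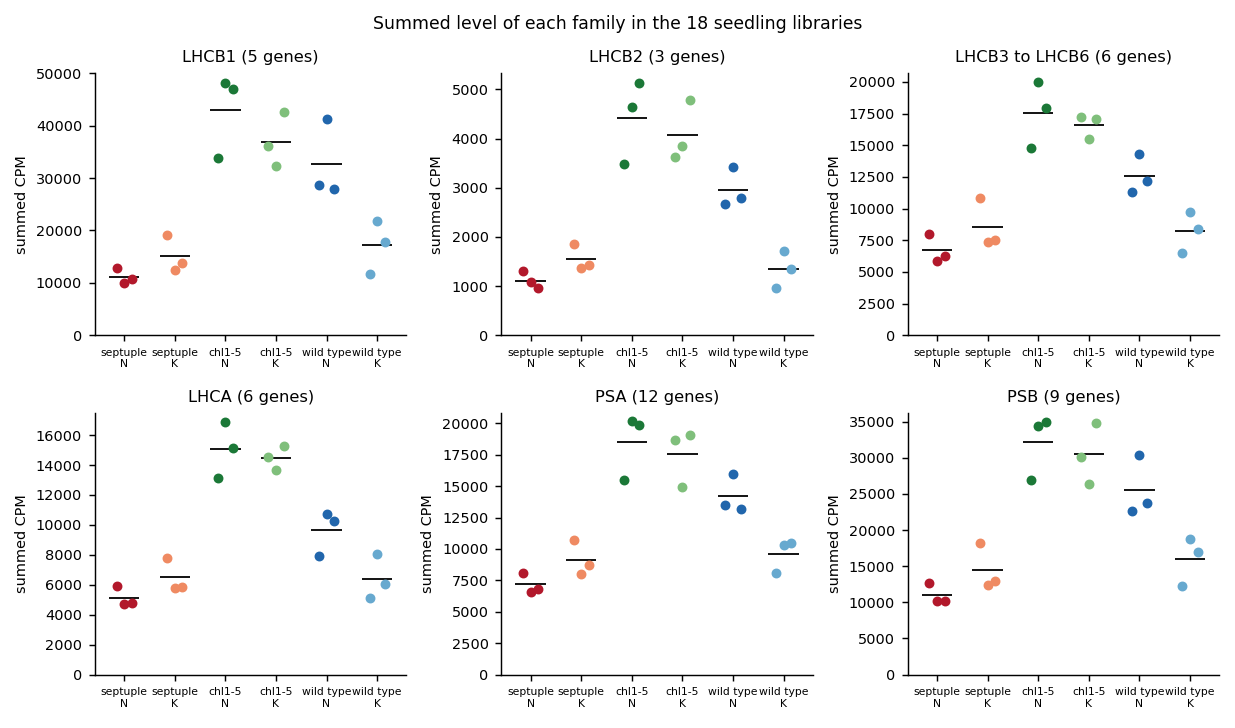
Summed level of each family in CPM (vertical axis, from 0) in the 18 seedling libraries. Each point is a library, bars are means of 3, and septuple stands for nlp2,4,5,6,7,8,9. In every family the septuple mutant N points lie below the wild type N points, and the LHCB1 sums run from 9973 to 12894 CPM in the septuple mutant in N against 27973 to 41365 CPM in wild type in N.

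The response to 20 min of nitrate was taken first in wild type. With edgeR's quasi-likelihood test and Benjamini-Hochberg adjustment over all genes tested, 6 of 40 members rose and 0 fell at an adjusted p under 0.05, against 0.65% of all 21229 genes that rose. The 6 were all 3 LHCB2 genes, CAB2 and LHB1B1 (AT2G34430) of LHCB1, and PSAD-2 (AT1G03130), a stromal subunit of photosystem I near its ferredoxin binding site. Log2 fold changes were positive for 39 members, with a median of 0.72 against -0.07 over all genes. All N libraries lay above all K libraries in 30 members, against 8.69% of all genes. At an unadjusted p under 0.05, 31 members were higher, beside 11.5% of all genes in either direction. The authors' deposited table for this comparison lists 22 members as higher and 0 as lower at an adjusted p under 0.05, beside 736 of the 15468 genes with an adjusted p there (4.76%).

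LHCB2 proteins are among the LHCII subunits that are phosphorylated when antenna moves between photosystems. LHCB2.1 had 1213, 1704 and 1267 CPM in wild type N libraries, against 450, 758 and 608 CPM in wild type K libraries. LHCB2.2 had 918, 1148 and 983 CPM in N, against 323, 593 and 457 CPM in K, and LHCB2.3 (AT3G27690) had 533, 568 and 547 CPM in N, against 196, 356 and 278 CPM in K. In each of these genes all N libraries were above all K libraries. The log2 fold changes were 1.20 ± 0.23 (SE, adjusted p = 0.0041) for LHCB2.1, 1.15 ± 0.22 (adjusted p = 0.00527) for LHCB2.2 and 0.99 ± 0.21 (adjusted p = 0.0183) for LHCB2.3.

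CAB2 had 3966, 6641 and 5214 CPM in N, against 1726, 3283 and 2145 CPM in K (log2 fold change 1.14 ± 0.25, adjusted p = 0.0188). LHB1B1 had 941, 1199 and 872 CPM in N, against 273, 685 and 446 CPM in K (1.1 ± 0.27, adjusted p = 0.0427). PSAD-2 had 667, 701 and 580 CPM in N, against 248, 387 and 407 CPM in K (0.90 ± 0.20, adjusted p = 0.0213). The groups did not overlap in any of these 3 genes. CAB1, the most abundant member, averaged 20584 ± 4933 CPM in N and 11227 ± 3251 CPM in K, and its log2 fold change of 0.87 ± 0.25 did not pass (adjusted p = 0.102). Of the LHCA family 0 of 6 passed, with values from 0.05 (Lhca6) to 0.80 (LHCA2), and of the PSB family 0 of 9, with values from 0.30 (PSBQ-2) to 0.82 (PSBW). By DESeq2, 20 of 40 members were called. No share of all genes called by DESeq2 is set beside its counts of called members, here or below. Those counts show how calls depend on the tool. PSAN (AT5G64040), a lumenal subunit of photosystem I, was the member with a negative value, 587 ± 98.8 CPM in N and 755 ± 64.9 CPM in K (log2 fold change -0.36 ± 0.21, adjusted p = 0.545).

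The count of 6 changed with single libraries. Leaving out wild type K replicate 1, which had the lowest summed level of its group, gave 0, leaving out K replicate 2 gave 13 and K replicate 3 gave 3. Leaving out N replicate 2 gave 2, and N replicate 3 gave 3. Fitted on the wild type libraries alone it was 0. Cell type markers were set beside this result. Mesophyll markers summed to 6786 to 9653 CPM in N against 6936 to 8376 CPM in K, epidermal markers to 831 to 996 against 639 to 951 CPM, root markers to 177 to 260 against 126 to 237 CPM, vascular markers to 235 to 345 against 178 to 271 CPM and guard cell markers to 5.98 to 11.8 against 6.85 to 15.3 CPM. Their part in the result was not tested.

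In the septuple mutant the same treatment gave negative values for 39 of 40 members, none of which passed edgeR's test. LHCB2.1 had 599, 506 and 459 CPM in N, against 881, 665 and 675 CPM in K, and LHCB2.2 had 400, 341 and 299 CPM in N, against 602, 448 and 475 CPM in K. For both genes the N libraries were below the K libraries, with log2 fold changes of -0.51 ± 0.22 and -0.55 ± 0.22 (adjusted p = 1.0 each). The median over members was -0.36, against 0.01 over all genes, and the range was -0.55 to 0.00. At an unadjusted p under 0.05, 7 members were lower and 0 higher. By edgeR 0 genes of all 21229 (0.0%) were called in this comparison, with 441 at an unadjusted p under 0.05, and by DESeq2 4 genes, 0 of them members. The authors' deposited table lists 0 members past the threshold here.

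The nitrate response itself was compared between the septuple mutant and wild type with an interaction term. LHCB2.1 and LHCB2.2 were the 2 members past the threshold, both with a lower response in the mutant, against 0.269% of all genes that were lower. The difference in log2 fold change was -1.71 ± 0.32 for LHCB2.1 (adjusted p = 0.00896) and -1.70 ± 0.31 for LHCB2.2 (adjusted p = 0.00755). Both calls held in every alternative run, including each fit with 1 library left out. LHB1B1 at -1.65 ± 0.37 (adjusted p = 0.0516), CAB2 at -1.50 ± 0.35 (0.0531), PSAD-2 at -1.21 ± 0.28 (0.0531) and LHCB2.3 at -1.27 ± 0.30 (0.0644) did not pass. The difference was negative for 39 of 40 members, with a median of -1.1 against 0.10 over all genes, and PSAN was the exception at 0.32 ± 0.30. The number of calls ranged from 2 to 26 with the tool, the scaling, the filter and the library left out. Of the 50-base windows, 76.5% of LHCB2.1 and 70.5% of LHCB2.2 are unique. The coding sequences of these 2 genes, of 954 and 798 bases, share an identical run of 137 bases. Their 2 calls may therefore not be independent.

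In chl1-5 0 of 40 members passed in either direction between N and K by edgeR (0.118% of all genes were called, all higher), 0 at an unadjusted p under 0.05 and 0 by DESeq2. The median log2 fold change was 0.10 against 0.00 over all genes. LHCB2.1 had 1628, 2117 and 2420 CPM in N, against 1517, 1783 and 2331 CPM in K, and the groups overlapped. The authors' deposited table for chl1-5 lists 0 members past the threshold. The response in chl1-5 was not shown to differ from that in wild type: 0 of 40 members passed the interaction test by edgeR (0.0141% of all genes did) and 0 by DESeq2, with 12 lower at an unadjusted p under 0.05 (8.0% of all genes were below it) and a median of -0.61 against 0.04 over all genes. For LHCB2 the values of that interaction ran from -1.07 to -0.99.

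**Figure D2:**
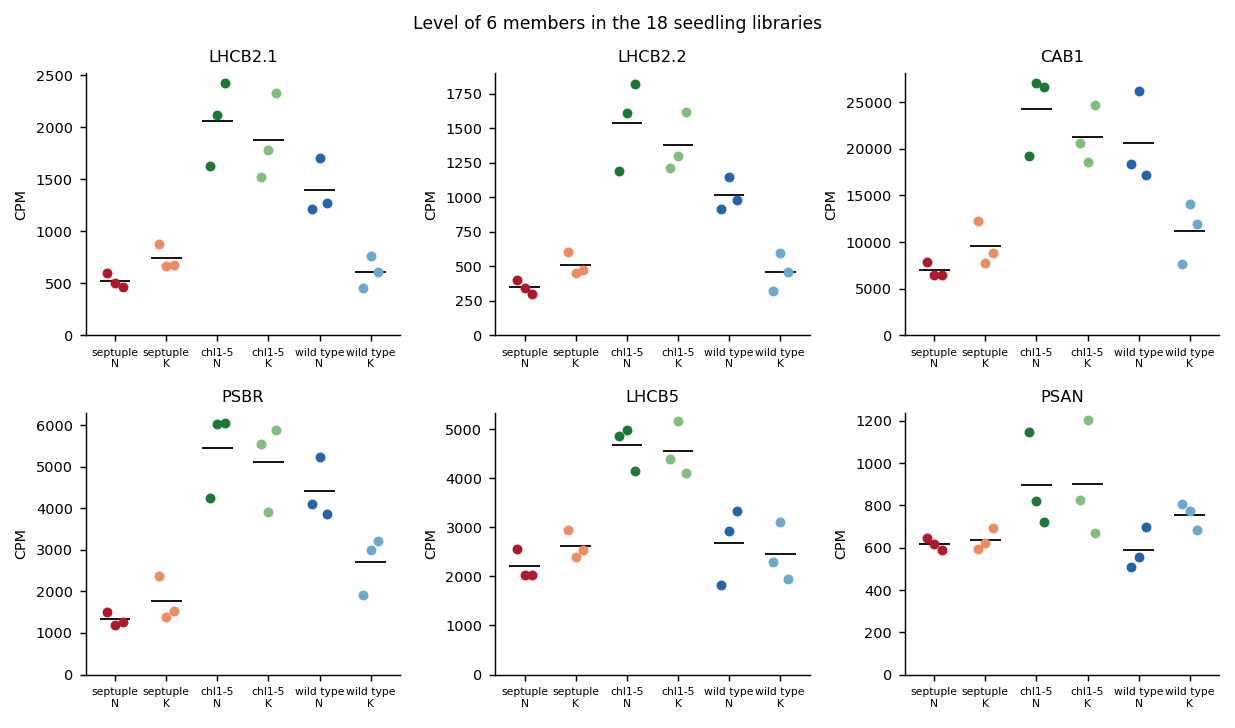
Level in CPM (vertical axis, from 0) of 6 members in the 18 seedling libraries, with a point per library and bars at the mean of 3. LHCB2.1, LHCB2.2, CAB1 and PSBR have all septuple mutant N points below all wild type N points, while LHCB5 (2021 to 2562 CPM against 1824 to 3325 CPM) and PSAN (591 to 647 CPM against 509 to 698 CPM) overlap.

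After nitrate, the septuple mutant had lower levels than wild type in every family. By edgeR 30 of 40 members fell and 0 rose at an adjusted p under 0.05, against 6.75% of all genes that fell. The log2 fold change was negative for 39 members, with a median of -1.14 against 0.04 over all genes. By family the fallen were 4 of 4 LHCB1, 3 of 3 LHCB2, 3 of 6 LHCB3 to LHCB6, 4 of 6 LHCA, 8 of 12 PSA and 8 of 9 PSB genes. All mutant libraries lay below all wild type libraries in 34 members, against 16.5% of all genes. DESeq2 called 33 members. In all alternatives the count was 28 to 33, and 27 members stayed called in each of them.

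Among the main LHCII genes, CAB1 had 7874, 6498 and 6505 CPM in septuple mutant N libraries, against 18367, 26236 and 17148 CPM in wild type N libraries. Its log2 fold change was -1.56 ± 0.25 (adjusted p = 0.000101). CAB2 had 1819, 1401 and 1749 CPM in the mutant, against 3966, 6641 and 5214 CPM in wild type (-1.67 ± 0.25, adjusted p = 4.55e-05). LHCB2.2 averaged 347 ± 50.4 CPM in the mutant and 1016 ± 119 CPM in wild type (-1.55 ± 0.22, adjusted p = 2.6e-05), and LHCB2.1 521 ± 71.1 and 1395 ± 269 CPM (-1.42 ± 0.23, adjusted p = 9.56e-05). No mutant library reached the wild type range in any of the 7 tested LHCB1 and LHCB2 genes.

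The remaining antenna genes were divided. LHCB6 (CP24) fell to 1065 ± 183 CPM in the mutant, against 2926 ± 505 CPM in wild type (log2 fold change -1.46 ± 0.27, adjusted p = 0.000542), and LHCB4.1 and LHCB4.2, which encode CP29, fell by 1.36 ± 0.26 and 0.99 ± 0.22 on the log2 scale (adjusted p = 0.000825 and 0.00368). LHCB3, a subunit of the LHCII trimers next to the minor antenna, had 1375, 986 and 1105 CPM in the mutant, against 1127, 1740 and 1994 CPM in wild type, and LHCB5 (CP26) had 2562, 2028 and 2021 CPM, against 1824, 2918 and 3325 CPM. The groups overlapped in both genes, and their log2 fold changes of -0.49 ± 0.22 and -0.29 ± 0.22 did not pass (adjusted p = 0.16 and 0.487). LHCB4.3 was at -0.59 ± 0.24 (adjusted p = 0.114). Of the antenna of photosystem I, LHCA1, LHCA2 and Lhca5 fell by 1.20, 1.11 and 0.91 (SE 0.22, 0.22 and 0.18), LHCA3 by 0.72 ± 0.23 with overlapping groups (adjusted p = 0.0433), and LHCA4 and Lhca6 did not pass at -0.58 ± 0.19 and -0.12 ± 0.19.

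For photosystem I itself, the lowest value was that of PSAH-1, one of a pair of genes for the subunit at the docking site of mobile LHCII. PSAH-1 had 262, 227 and 220 CPM in the mutant, against 894, 880 and 580 CPM in wild type (log2 fold change -1.73 ± 0.25, adjusted p = 2.77e-05). PSAH2, its partner, averaged 259 ± 14.6 CPM in the mutant and 529 ± 117 CPM in wild type (-1.03 ± 0.21, adjusted p = 0.00129). PSAL and PSAO, which stand at the same side of the complex, fell by 1.32 ± 0.25 and 0.86 ± 0.21, and PSAK by 1.28 ± 0.23. PSAD-1, PSAD-2 and PSAE-2 on the stromal side fell by 1.35 ± 0.22, 1.13 ± 0.20 and 1.38 ± 0.24. PSAF, which binds plastocyanin on the lumen side, did not pass with 1455 ± 170 CPM in the mutant and 1828 ± 471 CPM in wild type (adjusted p = 0.37). PSAN had 647, 618 and 591 CPM in the mutant, against 509, 554 and 698 CPM in wild type, so that the groups overlapped, and was the member with a positive value (0.08 ± 0.21, adjusted p = 0.887). PSAE-1 and PSAG did not pass either, at -0.56 ± 0.21 and -0.60 ± 0.24.

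In photosystem II, PSBR had 1512, 1193 and 1267 CPM in the mutant, against 4097, 5242 and 3872 CPM in wild type (log2 fold change -1.73 ± 0.25, adjusted p = 2.37e-05). The small membrane subunits PSBW and PSBY fell with it. PSBW had 799, 556 and 638 CPM in the mutant, against 2071, 2551 and 1638 CPM in wild type (-1.65 ± 0.25, adjusted p = 4.46e-05), and PSBY 942, 932 and 757 CPM, against 2557, 3112 and 2200 CPM (-1.58 ± 0.24, adjusted p = 4.55e-05). PSBX, another small membrane subunit, fell by 1.00 ± 0.22. Of the extrinsic proteins of the oxygen-evolving complex, PSBO1 fell to 2957 ± 488 CPM in the mutant, against 6763 ± 1315 CPM in wild type (-1.19 ± 0.24, adjusted p = 0.00133). PSBO2 fell by 1.27 ± 0.23, PSBQA by 0.91 ± 0.20 and PSBP-1 by 0.79 ± 0.19. PSBQ-2 was the PSB gene that did not pass (-0.39 ± 0.18, adjusted p = 0.169).

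**Figure D3:**
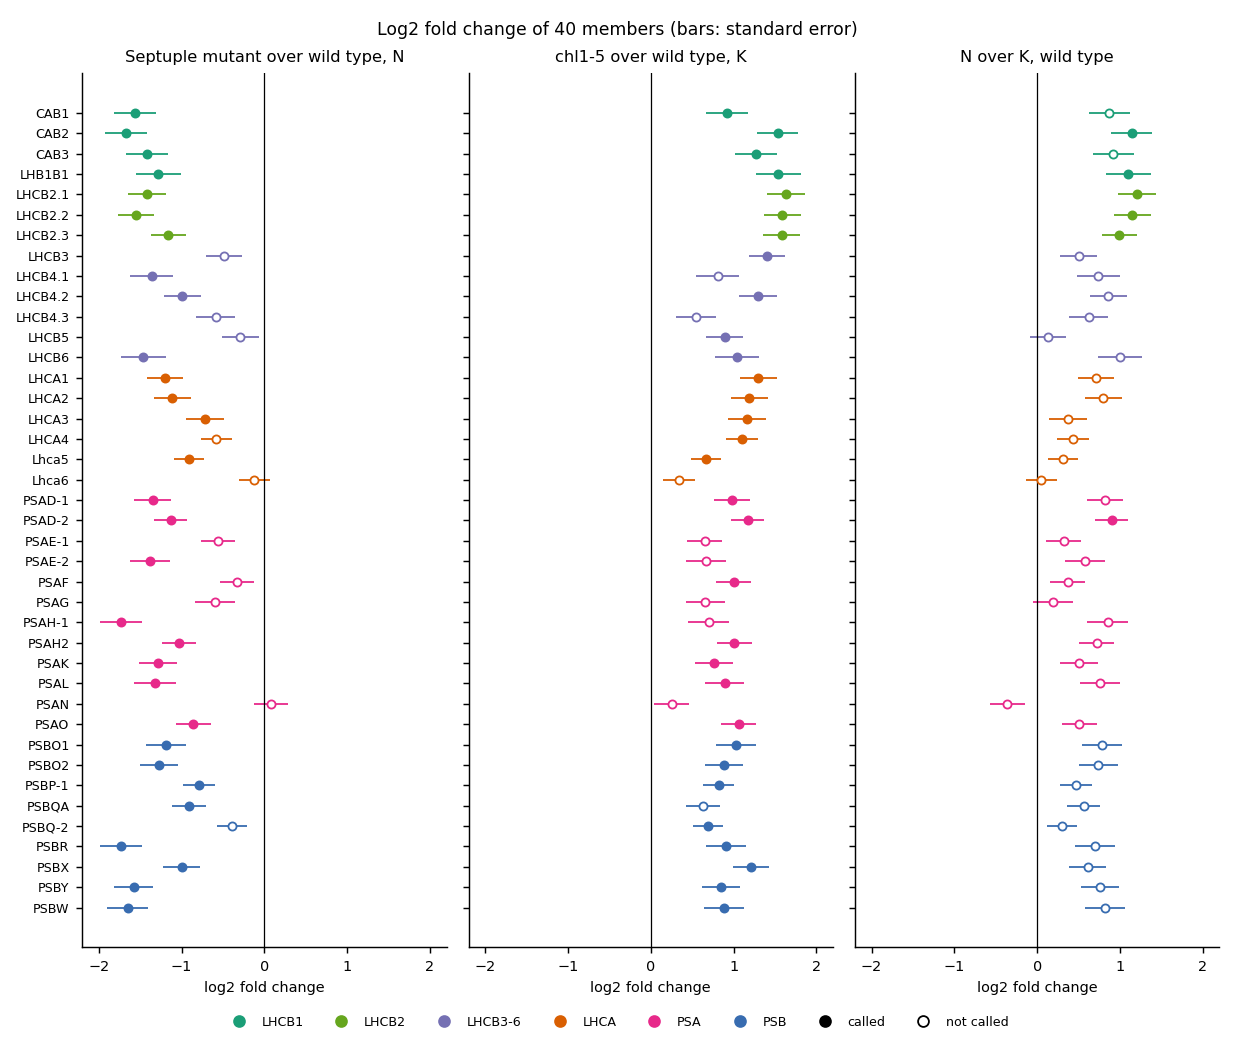
Log2 fold change of 40 members (horizontal axis) with its standard error as a bar, in 3 seedling comparisons, coloured by family. Filled points passed an adjusted p of 0.05. In N, septuple mutant over wild type, 39 of 40 points lie left of 0, in K, chl1-5 over wild type, all 40 lie right of 0, and for N over K in wild type 39 lie right of 0.

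Other parts of photosynthesis moved in that comparison too. Of 15 further genes of thylakoid electron transport, 10 fell and 0 rose, among them PSBTN (log2 fold change -1.93 ± 0.25), the ferredoxin genes FD1 (-1.67 ± 0.24) and FED A (-1.36 ± 0.23) and the plastocyanin gene DRT112 (-1.34 ± 0.22). Of 15 Calvin cycle genes 7 fell and 0 rose, including the Rubisco small subunit gene RBCS3B (-1.30 ± 0.22) and FBA1 (-1.48 ± 0.25). Both early light-induced genes fell, ELIP1 by 1.01 ± 0.24 and ELIP2 by 2.76 ± 0.29. Of 14 chlorophyll synthesis genes, CHLM and CHLI2 fell while HEMA1 and PORA rose, the last at 2.25 to 5.14 CPM in the mutant against 0.266 to 0.753 CPM in wild type. Of 14 regulators 4 fell: the bZIP factors HY5 (-1.07 ± 0.26) and HYH (-1.77 ± 0.32), which promote light-induced genes, and PIL5 (-0.98 ± 0.27) and PIL6 (-1.0 ± 0.20), factors of phytochrome signalling. GPRI1 (GLK1) and GLK2, which activate many members in other work, were at 0.37 ± 0.23 and -0.07 ± 0.21 and did not pass, nor did GNC (-0.74 ± 0.27, adjusted p = 0.0781) and CGA1 (-1.97 ± 0.76, adjusted p = 0.111). The 10 plastid-encoded photosystem genes had a median of -2.35, and none of them passed edgeR's test.

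Mesophyll markers summed to between 5818 and 7175 CPM in mutant libraries, against 6786 to 9653 CPM in those of wild type. Of the 8, 1 fell, the carbonic anhydrase gene CA1. Epidermal markers summed to 902 to 1053 against 831 to 996 CPM, root markers to 181 to 222 against 177 to 260 CPM, vascular markers to 277 to 296 against 235 to 345 CPM and guard cell markers to 8.0 to 9.89 against 5.98 to 11.8 CPM. Of the root list 1 of 14 tested rose and of the vascular list 1 of 8 fell. Their part in the result was not tested. Wild type N replicate 1 had 58.1% of alignments that were not unique, and without it 32 members were called.

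Without nitrate no difference between septuple mutant and wild type passed in these genes. In K, 0 of 40 members were called by edgeR (2.19% of all genes were called in either direction), 3 were lower and 0 higher at an unadjusted p under 0.05 (12.3% of all genes were below it), and 1 was called by DESeq2. The median log2 fold change was -0.04, as it was over all genes, and values ran from -0.62 to 0.41. LHCB2.1 averaged 741 ± 122 CPM in the septuple mutant in K and 605 ± 154 CPM in wild type in K, and LHCB2.2 508 ± 82.6 and 457 ± 135 CPM. CAB1 averaged 9593 ± 2373 and 11227 ± 3251 CPM. With library totals in place of TMM scaling 2 members were called.

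In chl1-5, the level without nitrate was above that of wild type. In K, 31 of 40 members rose and 0 fell by edgeR, against 2.86% of all genes that rose. All 40 values were positive, with a median of 0.95 against -0.11 over all genes. The risen were 4 of 4 LHCB1, 3 of 3 LHCB2, 4 of 6 LHCB3 to LHCB6, 5 of 6 LHCA, 7 of 12 PSA and 8 of 9 PSB genes. The LHCB2 family had the lowest p-values. LHCB2.1 had 1517, 1783 and 2331 CPM in chl1-5, against 450, 758 and 608 CPM in wild type (log2 fold change 1.63 ± 0.23, adjusted p = 0.000283). LHCB2.2 had 1215, 1296 and 1618 CPM, against 323, 593 and 457 CPM (1.59 ± 0.22, adjusted p = 0.000283), and LHCB2.3 884, 766 and 831 CPM, against 196, 356 and 278 CPM (1.58 ± 0.22, adjusted p = 0.000231). Every chl1-5 library was above every wild type library in these genes.

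LHCB3, which did not pass in the septuple mutant, had 3001, 3189 and 2899 CPM in chl1-5 in K, against 1025, 1434 and 980 CPM in wild type (log2 fold change 1.40 ± 0.22, adjusted p = 0.00129). LHCA3 and LHCA4 rose by 1.16 ± 0.23 and 1.1 ± 0.19, and LHCA1 averaged 3507 ± 555 CPM in chl1-5 and 1422 ± 355 CPM in wild type (1.30 ± 0.22, adjusted p = 0.00259). CAB2 rose by 1.53 ± 0.25, LHB1B1 by 1.54 ± 0.27, LHCB4.2 by 1.29 ± 0.23, PSBX by 1.21 ± 0.22 and PSAD-2 by 1.17 ± 0.20. CAB1 averaged 21306 ± 3129 CPM in chl1-5 and 11227 ± 3251 CPM in wild type (0.92 ± 0.25, adjusted p = 0.0305). The 9 that did not pass were LHCB4.1, LHCB4.3, Lhca6, PSAE-1, PSAE-2, PSAG, PSAH-1, PSAN and PSBQA, with values from 0.25 (PSAN) to 0.81 (LHCB4.1). LHCB5, whose nitrate response in wild type was 0.13 ± 0.22, rose by 0.89 ± 0.22 in chl1-5 in K (adjusted p = 0.0232).

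The size of this set depended on the libraries. Of the wild type K libraries, omission of replicate 1 left 15 calls and of replicate 3 left 17, and of the chl1-5 K libraries, omission of replicate 1 left 19 and of replicate 3 left 16. It was 14 with the 6 libraries of the comparison alone, while 13 members were called in all alternatives. Of the further electron transport genes 8 of 15 rose and 1 fell, of the Calvin cycle genes 4 of 15 rose, and of the regulators GLK2 (log2 fold change 0.94 ± 0.21), PIF4 (1.12 ± 0.29) and PIL6 (0.88 ± 0.20) rose. Epidermal markers summed to 1210 to 1218 CPM in chl1-5 against 639 to 951 CPM in wild type, with PDF1 and KCS10 of 6 called higher. Root markers summed to 246 to 332 against 126 to 237 CPM, mesophyll markers to 8127 to 10095 against 6936 to 8376 CPM, vascular markers to 190 to 296 against 178 to 271 CPM and guard cell markers to 6.03 to 11.1 against 6.85 to 15.3 CPM. Their part in the result was not tested.

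In N, no member passed between chl1-5 and wild type. Values were positive for all 40 members, with a median of 0.40 against -0.03 over all genes, and 0 were called by edgeR (0.0188% of all genes were called higher). At an unadjusted p under 0.05, 20 members were higher, beside 11.8% of all genes in either direction, and DESeq2 called 4. The lowest adjusted p was that of LHCB3 (0.96 ± 0.22, adjusted p = 0.0923), and LHCB5 was at 0.80 ± 0.22 (adjusted p = 0.183). The comparisons in N and in K with wild type, and the nitrate response of wild type, share libraries and are given side by side.

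Among the 9 factors expressed in protoplasts, NLP7 had the highest number of members called. With NLP7, 32 of 40 members rose and 0 fell by edgeR, against 6.4% of all 19311 genes that rose. The median log2 fold change was 0.95, against -0.02 over all genes. All 12 PSA genes rose, as did 8 of 9 PSB, 5 of 6 LHCB3 to LHCB6, 3 of 6 LHCA, 2 of 3 LHCB2 and 2 of 4 LHCB1 genes. The authors' deposited table for NLP7 also lists 32 members as higher, and 13.6% of all genes with an adjusted p as changed. DESeq2 called 32, the count was 25 to 34 in all alternatives, and 23 members were called in each of them.

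The members with the highest values were of several kinds. LHCB4.2 (CP29) had 102 and 69.5 CPM with NLP7, against 15.1 and 13.9 CPM in its control (log2 fold change 2.54 ± 0.18, adjusted p = 7.57e-08). PSBX (AT2G06520) had 92.2 and 66.9 CPM, against 16.4 and 14.1 CPM (2.36 ± 0.16, adjusted p = 5.64e-08), and PSAH2 48.4 and 33.9 CPM, against 8.92 and 7.94 CPM (2.27 ± 0.22, adjusted p = 2.85e-06). These are a minor antenna protein, a small subunit of photosystem II and a docking subunit of photosystem I. PSAD-1 (AT4G02770) had 113 and 81.7 CPM with NLP7, against 23.9 and 19.3 CPM (2.15 ± 0.18, adjusted p = 8.09e-07), LHCB6 104 and 69.3 CPM, against 19.4 and 22.0 CPM (2.03 ± 0.19, adjusted p = 4.79e-06), and LHCB2.1 29.8 and 25.0 CPM, against 7.09 and 7.59 CPM (1.87 ± 0.16, adjusted p = 9.81e-07). The NLP7 libraries were above both control libraries in each.

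Genes for the same protein had unequal values. LHCB4.1, the more abundant CP29 gene, had 231 and 186 CPM with NLP7, against 103 and 128 CPM in its control (log2 fold change 0.83 ± 0.15, adjusted p = 0.00201), and LHCB4.3 1.1 and 1.13 CPM, against 1.17 and 1.17 CPM (-0.09 ± 0.37, adjusted p = 0.923). PSAH-1, over 53.3% of whose exonic bases lies another locus, had 50.6 and 41.6 CPM, against 24.1 and 27.1 CPM (0.82 ± 0.13), beside 2.27 for PSAH2. PSAD-2 was at 1.24 ± 0.25 beside 2.15 for PSAD-1, and PSBO2, at 0.39 ± 0.13, did not pass (adjusted p = 0.0637) beside PSBO1 at 0.68 ± 0.11. The differences within these sets were not tested. The LHCB1 genes had some of the lower values, CAB1 at 0.72 ± 0.14 and CAB2 at 0.51 ± 0.13 being called and CAB3 at 0.17 ± 0.12 and LHB1B1 at 0.32 ± 0.16 not. LHCB2.3, LHCA1, Lhca5 and Lhca6 were the others that did not pass, with values from 0.03 (Lhca5) to 0.44 (Lhca6).

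**Figure D4:**
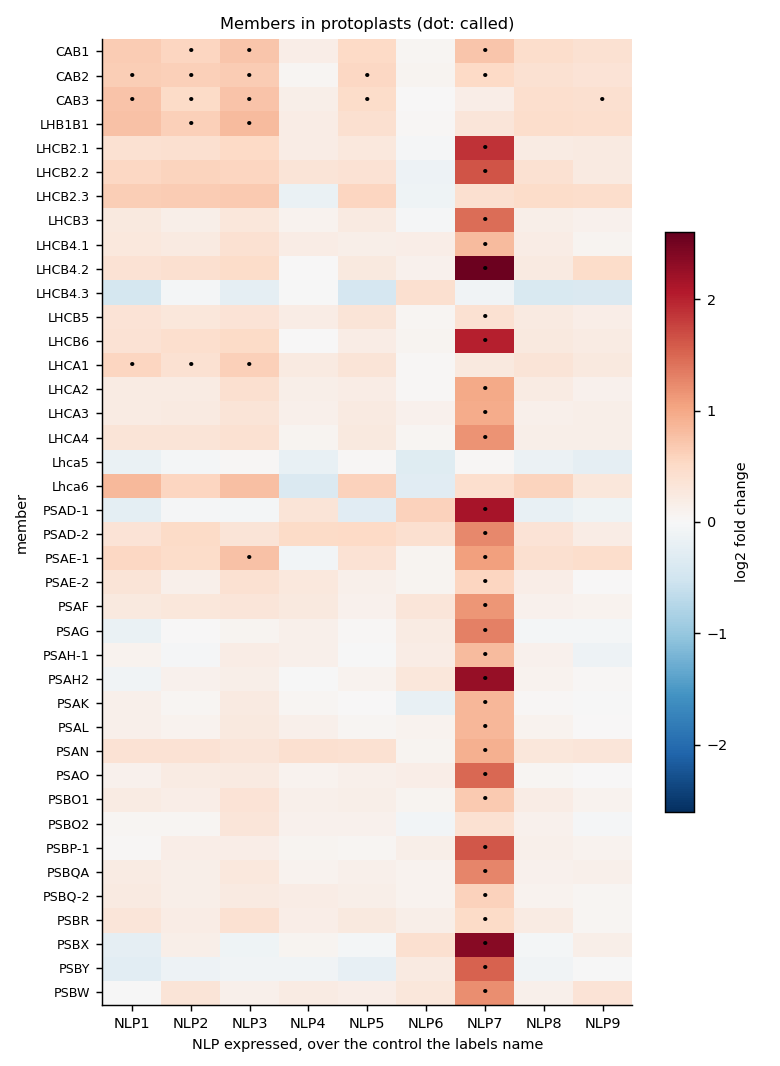
Log2 fold change (colour scale, white at 0) of 40 members (rows) for each NLP expressed in protoplasts over the control its labels name (columns). Dots mark an adjusted p under 0.05: the NLP7 column has 32, and the columns of NLP1, NLP2, NLP3, NLP5 and NLP9 have 3, 5, 6, 2 and 1.

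The control groups differed among themselves in these genes, which bears on how the NLP7 values are read. Summed over all members, the level was 3673 to 4333 CPM with NLP7 and 1997 to 2126 CPM in its own control. The control for NLP4 and NLP6 had 2999 to 3123 CPM, and the control for NLP1, 2, 3, 5, 8 and 9 had 5526 to 5554 CPM. The NLP7 libraries were above their own control and below the control with the highest sum, in which mesophyll markers also summed higher, to 1304 to 1310 CPM. Both NLP7 libraries were above both libraries of their own control in 37 of 40 members, against 29.3% of all genes, and below both libraries of the control for NLP1, 2, 3, 5, 8 and 9 in 25 of 40, against 37.0% of all genes. They were above all 6 control libraries in 6 of 40 members, a share close to the 14.6% of all genes with that position, so it is no result about the members. The 6 were LHCB4.2, LHCB6, LHCA4, PSAH2, PSBX and PSBY. LHCA4 had 342 and 295 CPM with NLP7, against 139 to 256 CPM over all 6 control libraries, PSAH2 48.4 and 33.9 CPM against 7.45 to 23.2 CPM, and PSBY 97.5 and 84.2 CPM against 25.7 to 63.1 CPM.

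**Figure D5:**
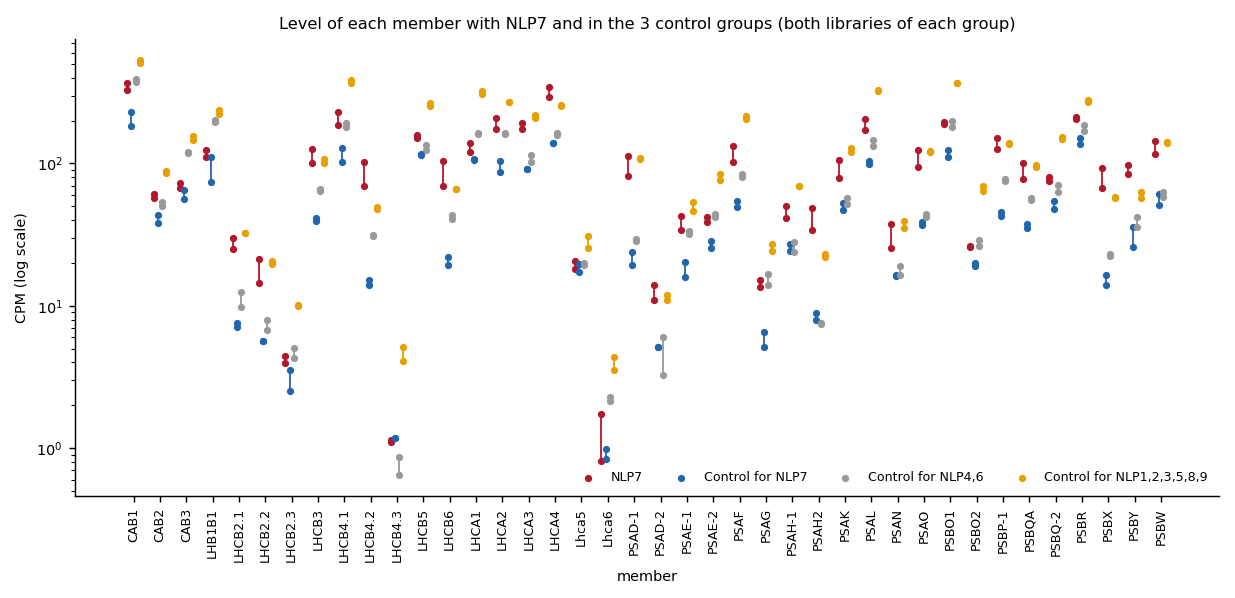
Level of each of 40 members in CPM (vertical axis, log scale) with NLP7 and in the 3 control groups, with both libraries of a group joined by a line. LHCB4.2, at 102 and 69.5 CPM with NLP7, and PSAH2, at 48.4 and 33.9 CPM, lie above all control points, whereas PSAL, at 205 and 173 CPM, lies between the control for NLP7 and the control for NLP1, 2, 3, 5, 8 and 9.

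The response to NLP7 was also compared with the mean response to NLP1, NLP2, NLP3 and NLP9, the NLPs whose libraries both held the labelled factor and had another control. This comparison was added after the data were seen. The response to NLP7 was higher for 20 of 40 members and lower for 0 by edgeR, against 1.43% of all genes that were higher, and DESeq2 gave 20 as well. PSBX differed by 2.37 ± 0.21 on the log2 scale (adjusted p = 3.7e-06), PSAD-1 by 2.27 ± 0.24, PSAH2 by 2.21 ± 0.29 and LHCB4.2 by 2.1 ± 0.24. For LHCB1 0 of 4 passed, with values from -0.44 (CAB3) to 0.14 (CAB1). The count was 13 without replicate 2 of the control for NLP7 and 13 members were called in all alternatives. The 2 responses were measured against different controls, so a difference between control preparations and a difference between factors cannot be told apart.

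The NLP7 libraries differed from their control in other measures. Plastid-encoded photosystem transcripts summed to 267 to 328 CPM with NLP7, against 517 to 4891 CPM in its control, with a median log2 fold change of -2.83 over the 10 genes, none of which passed edgeR's test. Alignments that were not unique came to 6.4 and 7.5% with NLP7, against 37.7 and 7.9% in its control. Without the control library at 37.7%, 26 members were called. Mesophyll markers summed to 1012 to 1074 CPM with NLP7, against 853 to 859 CPM, with 1 of 8 called, GOX2, 4 of 8 positive and a median log2 fold change of 0.06. Most of the difference in the sum was in the catalase gene CAT2, which averaged 400 CPM with NLP7 and 222 CPM in the control and did not pass (0.82 ± 0.75, adjusted p = 0.569). Root markers summed to 2.03 to 2.92 CPM with NLP7 (9 to 11 of 15 at 0), against 1.33 to 2.31 CPM (12 of 15 at 0), and vascular markers to 6.8 to 8.21 against 10.7 to 11.2 CPM. Epidermal markers summed to 2.05 to 2.35 against 1.68 to 2.34 CPM and guard cell markers to 2.92 to 5.51 against 2.75 to 2.94 CPM. Their part in the result was not tested.

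Genes around the members rose with NLP7 as well. Of 15 further electron transport genes 8 rose and 0 fell, including the plastocyanin gene PETE1 (17.8 to 22.4 CPM against 0.917 to 1.25 CPM, log2 fold change 4.13 ± 0.43) and the ferredoxin gene FED A (87.1 to 97.4 CPM against 17.5 to 17.7 CPM, 2.36 ± 0.12). Of 15 Calvin cycle genes 6 rose, with RBCS2B at 2.99 ± 0.15, and of 13 tested chlorophyll synthesis genes 6 rose, with CH1 at 2.24 ± 0.21. Among the regulators 2 of 14 rose. GNC, a GATA factor that promotes greening, had 28.1 to 31.1 CPM with NLP7, against 1.25 to 1.53 CPM in its control (4.35 ± 0.72, adjusted p = 0.00229), and GPRI1 (GLK1) had 84.6 to 100.0 CPM, against 40.1 to 42.9 CPM (1.12 ± 0.24, adjusted p = 0.01). GLK2 at 0.05 ± 0.35 and CGA1 at 1.15 ± 0.41 (adjusted p = 0.0917) did not pass. In the libraries labelled NLP6, NLP4, NLP5 and NLP8, the log2 fold change of GNC was 3.15, 2.54, 2.24 and 2.29. With NLP1, NLP2 and NLP3 it was -0.68, 1.13 and -0.56, and GNC passed in none of these groups.

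With the other NLPs few members passed the adjusted threshold, and those were mostly LHCB1 genes. The members' median log2 fold change was 0.26 with NLP1, 0.22 with NLP2, 0.33 with NLP3 and 0.13 with NLP9, against 0.02 over all genes. Values were positive for 32, 35, 36 and 32 of 40 members and negative for the others. In the libraries labelled NLP5 the median was 0.18, against 0.03 over all genes. With NLP1, CAB2, CAB3 and LHCA1 rose, 3 of 40 against 1.04% of all genes that rose. With NLP2 the 5 that rose were CAB1, CAB2, CAB3, LHB1B1 and LHCA1, a share of members (5 of 40) set against 6.03% of all genes. With NLP3 those 5 and PSAE-1 rose, 6 of 40 against 1.28% of all genes. With the libraries labelled NLP5, 1 of which held NLP8, it was CAB2 and CAB3 (2 of 40, against 2.53%), and with NLP9 CAB3 (1 of 40, against 7.31%), whose adjusted p lay just under the threshold. The share for NLP9 is below that of all genes and is no result about the members, and that for NLP5 rests on 2 genes. By unadjusted p, the shares for NLP2, NLP5 and NLP9 are near or below those of all genes and are no result about the members either. At an unadjusted p under 0.05, 14 of 40 members were higher with NLP1 and 21 of 40 with NLP3, and 0 were lower. Of all 19311 genes, 3329 and 3478 were below it in either direction. CAB3 had 243 and 265 CPM with NLP3, against 156 and 147 CPM in the control (log2 fold change 0.75 ± 0.14, adjusted p = 0.00949), and 261 and 245 CPM with NLP1 (0.75 ± 0.14, adjusted p = 0.0138). LHCA1 had 476 and 485 CPM with NLP3, against 322 and 310 CPM (0.61 ± 0.13, adjusted p = 0.0169). LHCA1 encodes an antenna protein of photosystem I and did not pass with NLP7, at 139 and 121 CPM against 105 and 108 CPM.

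These NLPs share a control, so their values are not independent. That control entered the fit as 1 sample with no replicate of its own, and it was assumed to vary like the other groups. The 4 libraries that go against their label stayed in the group of their label, so the groups labelled NLP4, NLP5, NLP6 and NLP8 each join libraries that held different factors. For the libraries labelled NLP4, NLP6 and NLP8, 0 members were called by edgeR (3.07%, 3.6% and 10.6% of all genes were called in either direction). At an unadjusted p under 0.05, 4 members were higher for those labelled NLP4, 3 higher and 1 lower for NLP6, and 7 higher for NLP8. These shares of 40 members lie below those of all genes, which were 21.6%, 20.3% and 25.4%, and are no result about the members. DESeq2 called 0, 1 and 1, and medians were 0.13, 0.08 and 0.16 on the log2 scale. Without the 4 libraries that go against their label the counts were 9, 11, 16 and 5 with NLP1, NLP2, NLP3 and NLP9, and 0, 2, 3 and 3 with NLP4, NLP5, NLP6 and NLP8. Leaving out either library of NLP1, or NLP2 replicate 2, NLP3 replicate 2, NLP5 replicate 2 or NLP9 replicate 1, left 0. The authors' deposited tables list 18, 18, 25, 10, 16 and 10 members as higher for NLP1, NLP2, NLP3, NLP5, NLP8 and NLP9, and 1 as lower for NLP1 and for NLP5. Over all genes with an adjusted p, the authors' deposited tables list 20.8%, 28.9%, 22.4%, 26.4%, 29.2% and 31.8% as changed, so the counts for NLP5 and NLP9 are close to or below the share of all genes.

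Other measures also stood apart from that control. Plastid-encoded photosystem transcripts summed to 13329 to 17201 CPM with NLP2, against 2048 to 2056 CPM in the control, with a median log2 fold change of 3.1, 10 of 10 positive and 0 called. The sums were 809 to 3307 CPM with NLP1, 1464 to 1630 CPM with NLP3, 2089 to 3045 CPM in the libraries labelled NLP5 and 2138 to 3184 CPM with NLP9. Mesophyll markers summed to 1522 to 1642 CPM with NLP2 and to 1259 to 1924 CPM over the other 4 groups, against 1304 to 1310 CPM in the control. GLK2, an activator of many members in other work, was lower with NLP2 (1.92 to 3.18 CPM against 8.24 to 9.62 CPM, log2 fold change -1.79 ± 0.45). Its log2 fold change was -1.76 ± 0.42 with NLP9, -1.21 ± 0.42 with NLP3 and -0.49 ± 0.42 with NLP1. In the libraries labelled NLP5 and NLP8 it was -1.56 ± 0.43 and -1.35 ± 0.42. Their part in the result was not tested.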

How the data were processed

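RNA of 42 libraries was sequenced. The submitters' processing notes name TopHat2 2.1.1, HTSeq 0.6.1, featureCounts and FastQC 0.11.5, with build TAIR10, and no source used here states a strand setting. The authors deposited raw counts per locus for each library and 12 tables of their own comparisons with log2 fold changes and adjusted p-values. Each count file ends in 5 totals (no feature, 0.65 to 5.72% of reads, and the like), which were kept out of library sizes and tests.

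From the deposited counts, edgeR 4.0.16 in R 4.3.3 (TMM scaling, low counts filtered by group, robust quasi-likelihood fit) was run over all genes of each system: 18 seedling libraries in 6 groups (21229 genes, 12 residual degrees of freedom) and 23 protoplast samples in 12 groups (19311 genes, 11 residual degrees of freedom). The 4 libraries against their label stayed under it, and the control for NLP1, 2, 3, 5, 8 and 9 was 1 sample, its 2 libraries summed. P-values were Benjamini-Hochberg adjusted over all genes and called at 0.05. SE is the log2 fold change divided by the square root of F. CPM are TMM-scaled. The scripts were tested on simulated data. Sequences and positions are from RefSeq TAIR10.1.

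Alternatives were DESeq2 1.42.0, RLE size factors, library totals, no filter, a replicate block, the groups of a comparison alone, all 24 protoplast libraries, omission of the 4 libraries against their label, and omission of each library. Same-numbered replicates deviated with correlations of -0.26 to 0.16, so the numbers were not taken to pair samples. Members and lists were chosen with earlier results of these data known. Any member could be named. Values in every library were given for the 8 members with the smallest adjusted p in a seedling comparison, a leading gene of each family and the protoplast members called most often. Of other lists, up to 5 called genes and GPRI1, GLK2, GNC, CGA1 and HY5 could be named.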

Additional observations from a re-analysis of the deposited data

Results flagged for a closer look

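The nitrate response of LHCB2.1 and of LHCB2.2 differed between the septuple mutant and wild type by a test of the difference itself. The difference in log2 fold change, septuple mutant minus wild type, was -1.71 for LHCB2.1 and -1.70 for LHCB2.2.

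The response to NLP7 differed from the mean response to NLP1, NLP2, NLP3 and NLP9 in 20 of 40 members, each of them higher with NLP7. This comparison was chosen after seeing the data, and its 2 sides have different controls.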

How the results depend on the processing

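No called member changed direction in any alternative. In wild type, N over K, 6 members were called, against 20 by DESeq2, 13 with no filter, 0 with the groups of the comparison alone and 0 to 13 with 1 library left out. For the difference in nitrate response between septuple mutant and wild type the count was 2, against 26 by DESeq2, 5 with RLE size factors, 18 with no filter and 2 to 16 with 1 library left out (16 when wild type K replicate 2 was omitted, 5 for wild type N replicate 1). In K, septuple mutant over wild type, it was 0, against 1 by DESeq2 and 2 with library totals. In N, septuple mutant over wild type, it was 30, and 28 to 32 with 1 library left out. In K, chl1-5 over wild type, it was 31, against 14 with the groups of the comparison alone and 15 to 36 with 1 library left out. In N, chl1-5 over wild type, it was 0, against 4 by DESeq2, 1 with library totals and 1 with no filter.

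For protoplasts, DESeq2 gave 6 (NLP1), 4 (NLP5), 1 (NLP6) and 1 (NLP8), library totals 1 (NLP1), 1 (NLP2), 1 (NLP3), 0 (NLP5) and 0 (NLP9), and no filter 1 (NLP6) and 2 (NLP9). All 24 libraries gave 9 (NLP1), 10 (NLP2), 15 (NLP3), 5 (NLP5), 5 (NLP8) and 6 (NLP9). Without the 4 libraries against their label the counts were 9 (NLP1), 11 (NLP2), 16 (NLP3), 3 (NLP6), 3 (NLP8) and 5 (NLP9). With 1 library left out they were 0 to 4 (NLP1), 0 to 5 (NLP2; 3 without replicate 2 of its control, 1 without NLP2 replicate 1), 0 to 5 (NLP3; 1 without NLP3 replicate 1), 0 to 2 (NLP5; 1 without replicate 2 of its control), 0 to 1 (NLP6; 1 without NLP6 replicate 1), 25 to 30 (NLP7), 0 to 1 (NLP8; 1 without replicate 1 of its control), 0 to 2 (NLP9; 2 without NLP9 replicate 2) and 13 to 20 (NLP7 against the mean of 4 NLPs). The causes were not tested.

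With the replicate number as a block, the seedling counts were 5 for wild type N over K, 29 for the septuple mutant in N and 27 for chl1-5 in K. The replicate block with all 24 protoplast libraries gave 9 (NLP1), 10 (NLP2), 13 (NLP3), 6 (NLP5), 4 (NLP8) and 4 (NLP9).

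Library totals moved the median log2 fold change of all genes to -0.31 in wild type N over K, 0.34 in N, septuple mutant over wild type, and -0.47 in K, chl1-5 over wild type, with member medians of 0.48, -0.85 and 0.60. Members at low counts in protoplasts, such as Lhca6 and LHCB4.3, had wide errors.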
